A study of Mus musculus with 18 samples.

Results

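Genes that make or use NAD in the mouse heart are described here across all 18 libraries of a Kcp knockout study of pressure overload: Nampt, Nmrk1, Nmrk2, Nmnat1, Nmnat3, Nadk2, Sirt3, Parp1 and Cd38. They were taken by gene name from a table of 34714 genes, and all 9 were found. All 9 also passed the filter on low values (at least 1 FPKM in at least 3 libraries), as did 11937 genes of the table. FPKM is the number of fragments scaled to transcript length and to the size of the library, so levels can be set side by side between genes.

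The study measured heart RNA of C57 mice that were wild type or carried a knockout of Kcp, which encodes a secreted modulator of BMP and TGF-beta signals. Hearts were taken after sham surgery or after TAC, the transverse aortic constriction that narrows the aortic arch and raises the pressure against which the heart pumps. Of wild-type hearts there were 4 sham and 5 TAC libraries, and of knockout hearts 4 sham and 5 TAC libraries. The labels give no further allele, no age or sex, and no interval between surgery and collection, and they do not say that each library came from its own mouse, so p-values measure the spread between libraries. Knockout sham replicate 2 bears a library name that joins those of replicates 3 and 4. It was therefore left out of every mean and test, which leaves 17 libraries, and its value is printed apart. Knockout TAC replicate 4 also bears a joined name, but no other library bears either part of it, and it was kept.

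Kcp itself (chromosome 6, 29473162 to 29508003) was read first as a check on the labels. Its level ranged from 0.794 to 1.48 FPKM over the wild-type libraries and from 0.494 to 0.952 over the knockout libraries. Knockout and wild-type libraries did not overlap within sham or within TAC, and the 2-sided exact permutation p was 0.0571 in sham and 0.00794 after TAC. Across all tested genes neither difference passed (limma with Benjamini-Hochberg adjusted p = 0.301 and 0.0843). No knockout library reached 1 FPKM, so only wild-type libraries brought Kcp past the filter. Near this floor, the knockout mean was 64.4% of wild type in sham and 67.9% after TAC. The values of Kcp are thus given as a description, and in sham they cannot be told apart from the library sets described next. Libraries also fell into 2 sets that nearly follow genotype. Rps10 lay at 47.0 to 66.9 FPKM in 8 wild-type libraries, and at 24.2 to 31.6 in wild-type TAC replicate 5 and the 9 knockout libraries. On the first principal component, which separated sham from TAC, wild-type TAC replicate 5 (1.2) and knockout TAC replicate 2 (11.4) stood nearest to sham within their groups. The other TAC libraries lay between 8.1 and 14.6 in wild type and between 23.6 and 31.2 in knockout. The tissue label was borne out by markers: all 9 cardiomyocyte markers examined were tested genes, and their summed level was 45300 to 60700 FPKM per library.

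NAD is the electron carrier of mitochondrial fuel oxidation, and it is also consumed as a substrate by sirtuins, by poly(ADP-ribose) polymerases and by the ectoenzyme CD38. Consumption releases nicotinamide, which the salvage enzyme NAMPT turns into nicotinamide mononucleotide. The kinases NMRK1 and NMRK2 make the same mononucleotide from nicotinamide riboside. NMNAT enzymes then join the mononucleotide to an adenylate to give NAD, NMNAT1 in the nucleus and NMNAT3 in mitochondria, and NADK2 phosphorylates NAD to NADP inside mitochondria. In earlier work on failing mouse hearts a fall of Nampt together with a rise of Nmrk2, a gene found mainly in striated muscle, has been described as a switch from the nicotinamide to the riboside route.

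The stretches just upstream of the transcription starts of Nmrk2 and Nampt are shown because these genes moved in opposite directions. Both come from RefSeq promoters on GRCm38.p6, windows of 250 bases that end at the base before the annotated start, and are written along the gene's own strand. The Nampt window is whole, and of the Nmrk2 window 30 bases around TATAAA are given. These 30 bases lie upstream of the Nmrk2 start used (81202037) but inside RefSeq's Nmrk2 gene, which reaches to 81202265. Most of the Nmrk2 window lies inside that gene as well. Capitals mark TATAAA (the TATA box) in Nmrk2 and AGGTCA (a core nuclear receptor element) in Nampt.
Nmrk2 (chr10:81202066-81202095, minus strand): gctgcccaaaccTATAAAtgccccacagct
Nampt (chr12:32820085-32820334, plus strand): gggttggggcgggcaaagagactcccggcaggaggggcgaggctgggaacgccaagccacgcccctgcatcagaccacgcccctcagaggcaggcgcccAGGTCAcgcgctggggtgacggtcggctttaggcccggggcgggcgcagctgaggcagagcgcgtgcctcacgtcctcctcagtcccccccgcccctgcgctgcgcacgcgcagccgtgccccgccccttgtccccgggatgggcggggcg
TATAAA in Nmrk2 begins 46 bases before the start and AGGTCA in Nampt begins 151 bases before it. Of 32851 mouse promoter windows of this length, searched on both strands, TATAAA is found in 12.4% and AGGTCA in 14.0%. The E-box CACGTG is found in 6.02% and the M-CAT element CATTCC in 12.6%, and neither is in the windows of Nmrk2 or Nampt. The only other match among the 8 members with a promoter sequence was CACGTG in Parp1. The Nmrk2 window holds 5 CpG dinucleotides, near the median of 6 over all windows, and the Nampt window holds 27, more than 91.4% of windows. These matches describe the letters of the windows only.

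Nampt, the rate-limiting enzyme gene of nicotinamide salvage (chromosome 12, 32820335 to 32853369), was the most abundant of the 9, with a mean of 44.9 FPKM over the 17 libraries. Wild-type sham replicates 1 to 4 had 66.5, 65.4, 72.7 and 61.6 FPKM. Wild-type TAC replicates 1 to 5 had 39.6, 30.8, 31.6, 42.9 and 45.85 FPKM. Every wild-type TAC library lay below every wild-type sham library, and replicate 5 was the highest of the TAC group. Knockout sham replicates 1, 3 and 4 had 51.25, 50.8 and 53.5 FPKM, and replicate 2, outside the model, had 49.35. Knockout TAC replicates 1 to 5 had 26.9, 34.5, 30.25, 30.5 and 28.1 FPKM. Again the TAC and sham libraries did not overlap, and replicate 2 was the highest of the TAC group. Nampt fell to 57.3% of its sham mean in wild type and to 58.0% in knockout. On the log2(FPKM + 1) scale the changes were -0.80 ± 0.10 (standard error, limma with Benjamini-Hochberg adjusted p = 4.77e-05) and -0.77 ± 0.11 (adjusted p = 3.04e-05). The difference between these changes was 0.03 ± 0.15 (interaction, limma with Benjamini-Hochberg adjusted p = 0.935).

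Nmrk2, the muscle nicotinamide riboside kinase gene (chromosome 10, 81198170 to 81202265), was low in sham hearts and varied widely after TAC. Wild-type sham replicates 1 to 4 had 4.49, 4.34, 4.51 and 6.19 FPKM. Wild-type TAC replicates 1 to 5 had 10.15, 35.7, 17.7, 8.30 and 7.05 FPKM. All 5 TAC libraries exceeded all 4 sham libraries, but replicate 2 stood far above the others and replicate 5 only just above sham. Knockout sham replicates 1, 3 and 4 had 5.10, 5.41 and 2.86 FPKM, and replicate 2, outside the model, had 5.065. Knockout TAC replicates 1 to 5 had 39.1, 9.40, 33.7, 44.1 and 24.3 FPKM. Here too the groups did not overlap, and replicate 2 was the lowest TAC library. The mean went from 4.88 ± 0.875 (SD, n = 4) to 15.8 ± 11.9 FPKM (n = 5) in wild-type hearts. Knockout hearts went from 4.46 ± 1.39 (n = 3) to 30.1 ± 13.7 FPKM (n = 5). The coefficient of variation was 75.3% in wild-type TAC and 45.6% in knockout TAC, the largest of the 9 genes in each of these groups.

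**Figure D1:**
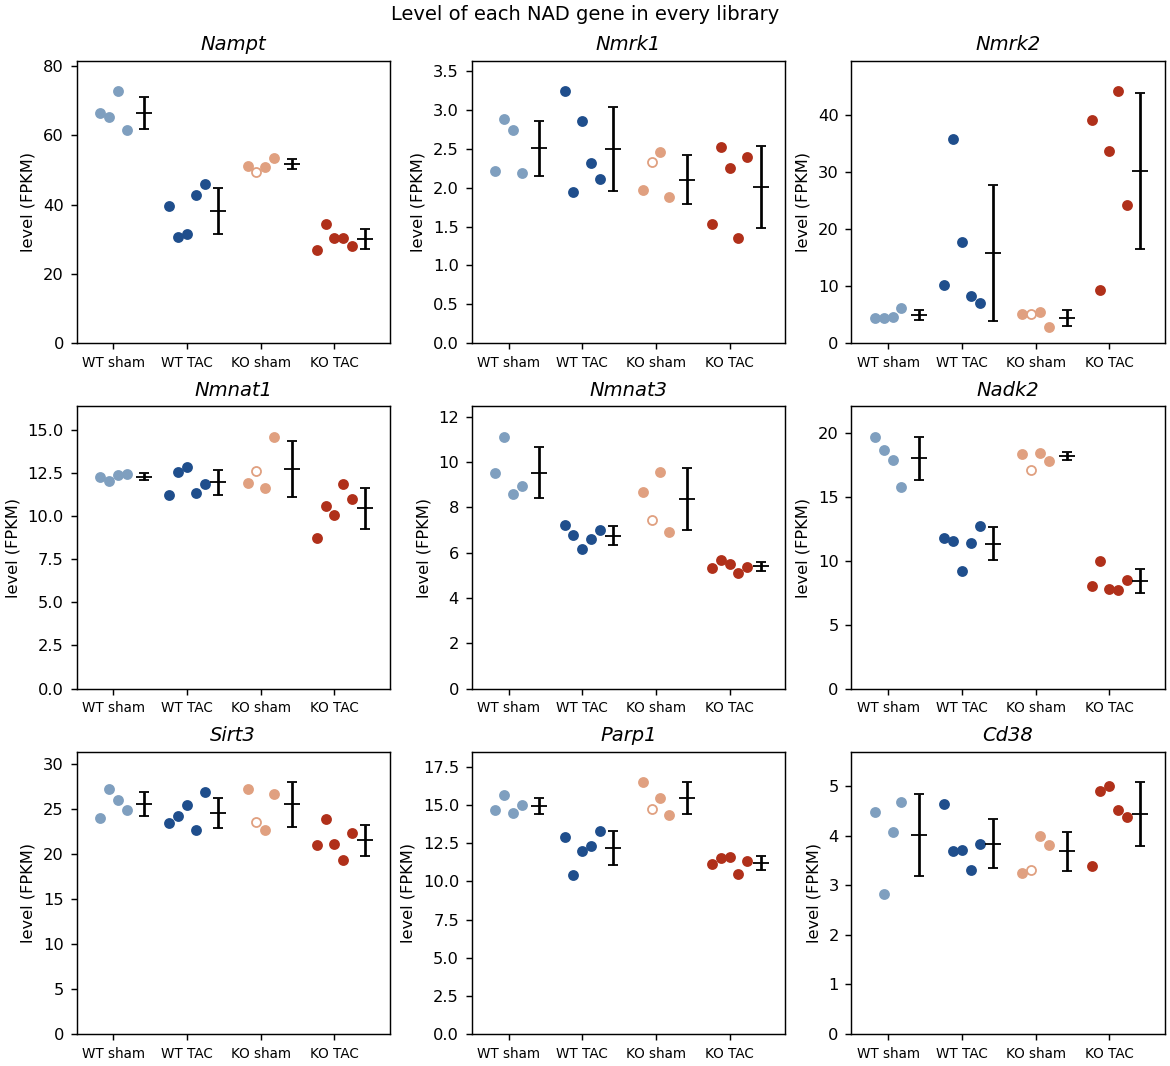
Level of each of the 9 genes in FPKM (vertical axes, from 0) in every library, by group (WT, wild type; KO, knockout). Filled points are libraries in the model, the open point is knockout sham replicate 2, and black bars are the mean ± SD; Nmrk2 is the gene with higher TAC than sham libraries in each genotype, while Nampt, Nmnat3, Nadk2 and Parp1 have lower TAC libraries with no overlap.

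The rise of Nmrk2 passed the test in knockout and narrowly missed it in wild type. Its log2 change was 2.38 ± 0.49 in knockout (limma with Benjamini-Hochberg adjusted p = 0.0014) and 1.28 ± 0.45 in wild type (adjusted p = 0.0549). The wild-type call depended on which libraries were in the fit: without wild-type TAC replicate 5 the change was 1.48 (limma adjusted p = 0.0344), without wild-type TAC replicate 4 it was 1.43 (adjusted p = 0.0499), and without knockout TAC replicate 2, which lowers the shared spread, it was 1.28 (adjusted p = 0.0243). It also passed with all 18 libraries (limma adjusted p = 0.0454) and with a pseudocount of 0.1 (adjusted p = 0.0459), and over all alternatives its adjusted p ranged from 0.0105 to 0.121. The larger rise in knockout was not shown to differ from that in wild type (interaction 1.10 ± 0.67, limma with Benjamini-Hochberg adjusted p = 0.395). Nmrk2 shares 270 of its 1854 exonic bases with the antisense gene Atcayos, and no source used here says that counting used strand. Atcayos itself had 45.8 ± 3.64 FPKM in wild-type sham and 44.8 ± 5.94 in wild-type TAC, and 42.35 ± 13.4 and 34.7 ± 8.89 in knockout. It did not pass in either TAC comparison (limma adjusted p = 0.913 and 0.317).

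Nmrk1, the widely expressed riboside kinase gene (chromosome 19, 18632016 to 18652428), did not move with Nmrk2. It ranged from 1.36 to 3.24 FPKM over all 18 libraries, the lowest level of the 9 genes. Its log2 change with TAC was -0.01 ± 0.13 in wild type and -0.06 ± 0.14 in knockout (limma with Benjamini-Hochberg adjusted p = 0.955 and 0.781). The ratio of Nmrk2 to Nmrk1 was 1.503 to 2.82 in the wild-type sham libraries and 3.13 to 18.3 after TAC. In knockout it was 1.53 to 2.59 in the sham libraries of the model and 3.73 to 32.4 after TAC.

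Set against each other, Nmrk2 and Nampt changed places in part of the TAC hearts. In sham libraries Nmrk2 was far below Nampt, with a ratio of 0.0620 to 0.101 in wild type and 0.0535 to 0.107 in knockout. Wild-type TAC replicates 1 to 5 had ratios of 0.256, 1.16, 0.560, 0.194 and 0.154. Knockout TAC replicates 1 to 5 had ratios of 1.46, 0.273, 1.11, 1.45 and 0.864. Nmrk2 thus exceeded Nampt in wild-type TAC replicate 2 and in knockout TAC replicates 1, 3 and 4, and in no sham library. The ratio is a description of chosen genes and was not tested.

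**Figure D2:**
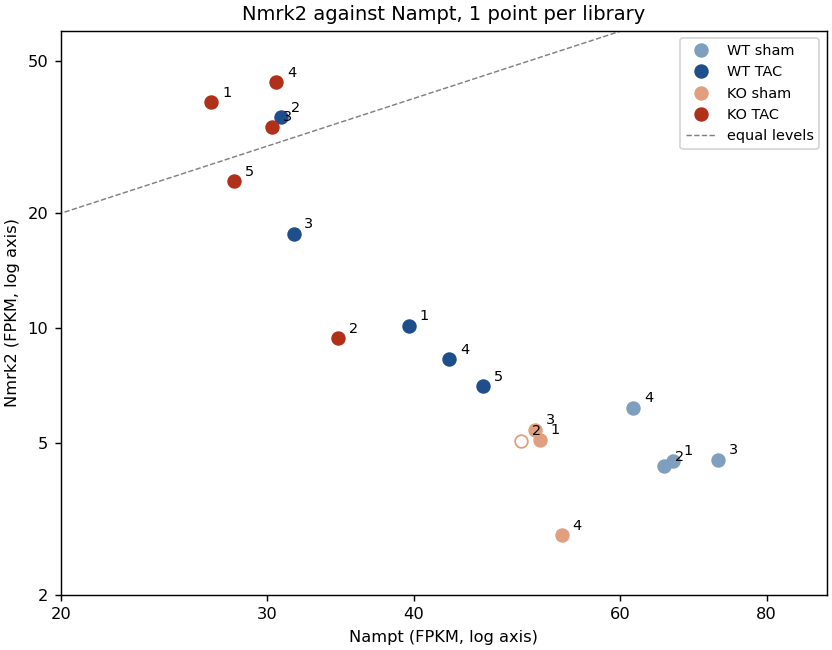
Nmrk2 (vertical, FPKM, log axis) against Nampt (horizontal, FPKM, log axis), 1 point per library with its replicate number; the open point is knockout sham replicate 2 and the dashed line marks equal levels. The 4 libraries above the line are wild-type TAC replicate 2 and knockout TAC replicates 1, 3 and 4.

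Pooled over groups with group means removed, libraries with more Nmrk2 tended to have less Nampt, though not in every group. The order was inverse throughout in wild-type TAC and in the knockout sham libraries of the model. In wild-type sham replicates 1 to 3 both genes rose together, and knockout TAC replicates 1, 3, 4 and 5 held no inverse order. With each group's mean removed, log2 values of the genes had a Pearson r of -0.813 and a Spearman rho of -0.740 over the 17 libraries, and an r of -0.725 without the 2 libraries farthest from the median of Nmrk2. Points of a group share surgery and genotype, and all values of a library share its scaling, so this is given as a description. Among all tested genes with a proper name, Nmrk2 was the fifth lowest in r with Nampt on this measure. Over levels in the 17 libraries, the genes most like Nmrk2 were Ckap4 (r = 0.946), Adamtsl5 (0.945), Fhl1 (0.937), Efhd2 (0.934) and Ddr1 (0.933). Those most opposite were Sucla2 (-0.944), a subunit gene of succinyl-CoA ligase, Kcna7 (-0.942), Mia2, Ank and Mrgprh. With group means removed, Wdr1 (0.899), Ckap4 (0.832), Fhl1, Inhbb (0.817) and Adamtsl5 (0.803) led, and Gata2 (-0.891) was the most opposite. Inhbb reached at most 0.4885 FPKM in wild-type sham and 0.468 in the knockout sham libraries of the model. Only TAC libraries thus brought Inhbb past the filter. For Nampt the most alike in level were Hsd11b1 (r = 0.962), Abcc9 (0.960), Asb14, Kiz and Hdlbp, and the most opposite were Rhoc (-0.965), Loxl1 (-0.960), Fhl1 (-0.957), Pmepa1 and Syk. Fhl1, a LIM-domain gene of the stretch-sensing sarcomere, stood on both sides: it was at 44.7 ± 2.33 FPKM in wild-type sham and 120.5 ± 49.4 in wild-type TAC, and at 49.5 ± 2.84 and 153.4 ± 35.2 in knockout.

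Of the adenylyltransferase genes, the mitochondrial Nmnat3 fell in both genotypes and the nuclear Nmnat1 in knockout. Nmnat3 (chromosome 9, 98287433 to 98420533) had 9.49, 11.1, 8.59 and 8.93 FPKM in wild-type sham replicates 1 to 4. Wild-type TAC replicates 1 to 5 had 7.20, 6.77, 6.135, 6.62 and 6.99 FPKM, all below sham. Knockout sham replicates 1, 3 and 4 had 8.65, 9.56 and 6.885 FPKM, and replicate 2, outside the model, had 7.42. Knockout TAC replicates 1 to 5 had 5.32, 5.66, 5.48, 5.12 and 5.37 FPKM, a narrow range below every sham library. The log2 changes of Nmnat3 were -0.44 ± 0.08 in wild type and -0.54 ± 0.09 in knockout (limma with Benjamini-Hochberg adjusted p = 0.000979 and 0.000106).

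Nmnat1 (chromosome 4, 149467569 to 149485210) was between 12.05 and 12.48 FPKM in wild-type sham and between 11.2 and 12.9 in wild-type TAC. In knockout it was at 11.7 to 14.6 FPKM in sham and 8.74 to 11.9 after TAC, with overlap. The log2 change was -0.04 ± 0.08 in wild type (limma with Benjamini-Hochberg adjusted p = 0.772) and -0.26 ± 0.08 in knockout (adjusted p = 0.0194). Without knockout sham replicate 4, the library with 14.6 FPKM, the knockout change was -0.16 and did not pass (limma adjusted p = 0.153). It did not pass either when only the knockout groups were fitted (adjusted p = 0.0764, limma). The change of Nmnat1 was not shown to differ between genotypes (interaction -0.22 ± 0.11, limma with Benjamini-Hochberg adjusted p = 0.296).

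Nadk2, the mitochondrial NAD kinase gene (chromosome 15, 9071260 to 9110496), had the largest fall of the 9 genes in knockout. Wild-type sham replicates 1 to 4 had 19.7, 18.7, 17.9 and 15.8 FPKM. Wild-type TAC replicates 1 to 5 had 11.8, 11.6, 9.22, 11.4 and 12.7 FPKM, below every sham library. Knockout sham replicates 1, 3 and 4 had 18.3, 18.5 and 17.85 FPKM, and replicate 2, outside the model, had 17.1. Knockout TAC replicates 1 to 5 had 8.04, 9.998, 7.82, 7.75 and 8.49 FPKM, again with no overlap and with replicate 2 nearest to sham. Wild-type TAC hearts held 62.9% of the sham level (-0.63 ± 0.08 on the log2 scale, limma, Benjamini-Hochberg adjusted p = 8.25e-05). Knockout TAC hearts held 46.2% of it (log2 change -1.03 ± 0.09, limma adjusted p = 3.44e-07). The fall was 0.41 ± 0.12 larger on the log2 scale in knockout, with an adjusted p of 0.0976 for the interaction (limma, Benjamini-Hochberg). That difference passed without knockout TAC replicate 2 (-0.46, limma adjusted p = 0.0271) and without wild-type TAC replicate 3 (-0.47, adjusted p = 0.0473). It also passed with the replicate number as a block (-0.45, limma adjusted p = 0.0496), although replicate numbers did not pair libraries. Over all single libraries left out, its adjusted p ran from 0.0271 to 0.163 (limma), so the call depended on which libraries were in the fit.

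Among the genes that use NAD, Parp1 fell in both genotypes, Sirt3 in knockout, and Cd38 in neither. Parp1, which encodes the main poly(ADP-ribose) polymerase of DNA damage (chromosome 1, 180568891 to 180600999), had 14.65, 15.6, 14.5 and 15.0 FPKM in wild-type sham replicates 1 to 4. Wild-type TAC replicates 1 to 5 had 12.9, 10.4, 12.01, 12.3 and 13.3 FPKM. Knockout sham replicates 1, 3 and 4 had 16.5, 15.5 and 14.4 FPKM, replicate 2, outside the model, had 14.75, and the 5 knockout TAC libraries lay between 10.5 and 11.6. In both genotypes the TAC libraries were all below the sham libraries, by a small step. The log2 changes of Parp1 were -0.28 ± 0.06 and -0.43 ± 0.07 (limma with Benjamini-Hochberg adjusted p = 0.00414 in wild type and 8.5e-05 in knockout).

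Sirt3, the main deacetylase gene of mitochondria (chromosome 7, 140863663 to 140882309), was the second most abundant of the 9. It was at 25.6 ± 1.36 FPKM in wild-type sham (n = 4) and 24.6 ± 1.67 in wild-type TAC (n = 5), and at 25.6 ± 2.48 (n = 3) and 21.6 ± 1.73 (n = 5) in knockout. The log2 change passed in knockout (-0.23 ± 0.07, limma with Benjamini-Hochberg adjusted p = 0.0193) and was -0.06 ± 0.07 in wild type (adjusted p = 0.605). The knockout call was lost without knockout sham replicate 1 (-0.19, limma adjusted p = 0.104) and without knockout sham replicate 4 (-0.20, adjusted p = 0.0844). It was also lost when only the knockout groups entered the fit (limma adjusted p = 0.0551). The change of Sirt3 was not shown to differ between genotypes (interaction -0.18 ± 0.10, limma with Benjamini-Hochberg adjusted p = 0.361). Some exons of Sirt3 overlap Psmd13 and Ric8a on the other strand, by 5.73% and 7.0% of its exonic bases. Psmd13 rose in knockout (33.7 to 39.6 FPKM, limma adjusted p = 0.00432), and Ric8a did not pass in either genotype.

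Cd38, the NAD glycohydrolase gene of immune and endothelial cells (chromosome 5, 43868809 to 43912374), was at 2.83 to 4.68 FPKM in wild-type sham and 3.30 to 4.64 in wild-type TAC. In knockout it was at 3.24 to 4.003 FPKM in sham and 3.38 to 5.01 after TAC. Neither log2 change passed (-0.04 ± 0.12 in wild type and 0.21 ± 0.13 in knockout, limma with Benjamini-Hochberg adjusted p = 0.84 and 0.202). Of 8 macrophage markers, 1 rose in wild type and 3 rose in knockout, beside 10.7% and 21.1% of all tested genes. Their summed level was 44.2 to 63.3 FPKM in wild-type sham, 47.5 to 66.2 in wild-type TAC, 41.7 to 45.9 in knockout sham and 57.9 to 79.7 in knockout TAC.

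Counted together, 4 of the 9 genes fell and 0 rose in wild type after TAC, where 21.9% of all tested genes passed (11.2% lower and 10.7% higher). In knockout 6 fell and 1 rose, where 38.8% of tested genes passed (17.7% lower and 21.1% higher). The median log2 change of the 9 was -0.06 in wild type and -0.26 in knockout, against -0.01 and 0.01 over all tested genes. The libraries of sham and TAC did not overlap for 5 of the 9 in each genotype, namely Nampt, Nmrk2, Nmnat3, Nadk2 and Parp1. Of all tested genes, 21.7% showed no such overlap in wild type (10.5% higher and 11.1% lower) and 35.8% in knockout (19.8% higher and 16.0% lower). With the 2 TAC libraries nearest to sham left out, 5 genes passed in wild type, Nmrk2 with them, and 7 in knockout.

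**Figure D3:**
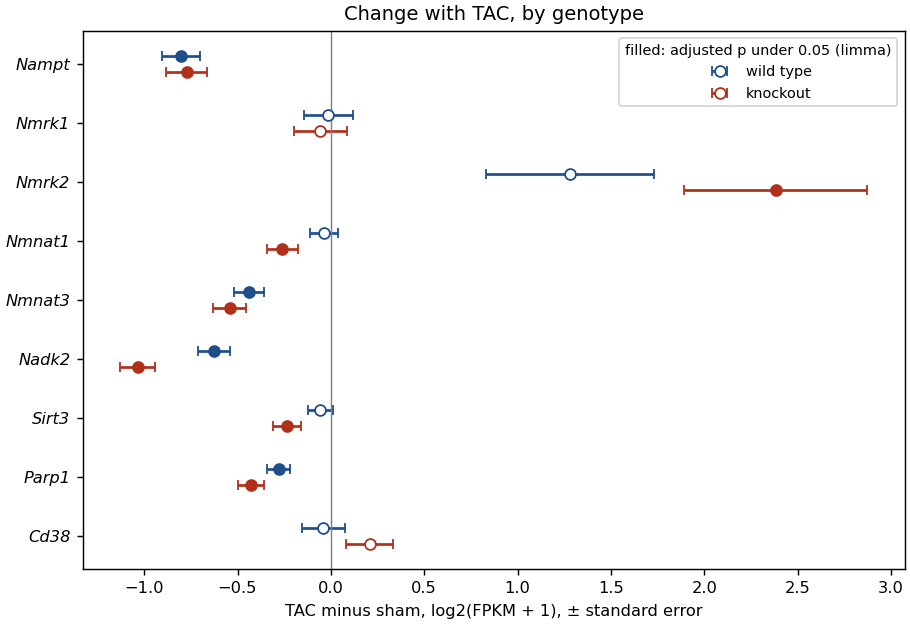
Change of each gene with TAC (horizontal, TAC minus sham in log2(FPKM + 1), point with its standard error) in wild type (blue) and knockout (red). Filled points passed the adjusted p threshold of 0.05 in limma; Nmrk2 lies far to the right with wide errors, at 1.28 and 2.38, and Nadk2 has the widest gap among the genes that fell.

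In bulk heart RNA, fewer cells of a type and less RNA per cell cannot be told apart. Of 9 cardiomyocyte markers, 5 fell and 1 rose in wild type, and 8 fell and 0 rose in knockout. Of all tested genes, 11.2% fell and 10.7% rose in wild type, and 17.7% fell and 21.1% rose in knockout. The summed marker level was 56300 to 58300 FPKM in wild-type sham and 51400 to 55200 in wild-type TAC, and 55300 to 60700 and 45300 to 51000 in knockout. Of 6 fibroblast markers, 2 rose and 1 fell in wild type, and 5 rose and 0 fell in knockout. These summed to 292 to 379 FPKM in wild-type sham and 339 to 565 in wild-type TAC, and to 280.0 to 341 and 461 to 596 in knockout, where the groups did not overlap. The part of either cell type in the falls of Nampt, Nmnat3, Nadk2, Parp1 and Sirt3 was not tested. Nmrk2 is also a skeletal muscle gene. Of 9 fast skeletal muscle markers, Myh4 was listed at 0 in every library, and Myh1, Myh2, Actn3 and Atp2a1 stayed under 0.5 FPKM. Their summed level was 2.19 to 3.74 FPKM in wild-type sham, 1.62 to 2.28 in wild-type TAC, 2.99 to 4.39 in knockout sham and 1.16 to 2.56 in knockout TAC.

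Knockout and wild-type hearts were then compared under each surgery. In sham, genotype and library set cannot be told apart, and after TAC the sets nearly follow genotype. In sham hearts 0 of the 9 passed (limma with Benjamini-Hochberg, where 1.26% of tested genes passed, 0.645% higher and 0.62% lower), and 1, Nampt, was under an unadjusted p of 0.05. Nampt was at 77.9% of the wild-type mean, with every knockout library below every wild-type library. Its log2 difference was -0.35 ± 0.12 (limma adjusted p = 0.158), and it passed when only the sham groups were fitted (adjusted p = 0.0285). Of all tested genes, 15.4% had no overlap between genotypes in sham (8.15% lower and 7.27% higher).

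After TAC 3 of the 9 were lower in knockout and 0 were higher, where 11.3% of tested genes passed (4.78% lower and 6.53% higher). They were Nadk2 (74.2% of wild type, log2 difference -0.39 ± 0.08, limma with Benjamini-Hochberg adjusted p = 0.00583), Nampt (78.8%, -0.32 ± 0.10, adjusted p = 0.0388) and Nmnat3 (79.9%, -0.28 ± 0.08, adjusted p = 0.0275). For Nmnat3 the highest knockout library (5.66 FPKM) was below the lowest wild-type library (6.135), which was so for 6.69% of tested genes in either direction with 2.87% lower and 3.83% higher. The Nadk2 and Nampt libraries overlapped, since knockout TAC replicate 2 lay above the lowest wild-type TAC library for each. Nmrk2 was 1.91-fold higher on average in knockout TAC, a log2 difference of 0.97 ± 0.42 that did not pass (limma adjusted p = 0.159). It passed without knockout TAC replicate 2 (1.32, limma adjusted p = 0.0287) and without wild-type TAC replicate 2 (1.31, adjusted p = 0.0485). Over all single libraries left out, the difference ran from 0.77 to 1.32 and its adjusted p from 0.0287 to 0.314 (limma). The calls of Nampt and Nmnat3 were fragile: leaving out single libraries gave adjusted p values up to 0.103 for Nampt and 0.0634 for Nmnat3 (limma), while for Nadk2 they stayed at or below 0.0195.

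The library sets nearly follow genotype, so they touch these comparisons. Within the second set, wild-type TAC replicate 5 had 45.85 FPKM of Nampt, 12.7 of Nadk2 and 6.99 of Nmnat3, each above all 5 knockout TAC libraries, and 7.05 of Nmrk2, below all 5. The sham groups cannot be compared within a set, since wild-type sham libraries are all in the first set and knockout sham libraries all in the second. With a term for the set, which rests on that 1 library, the log2 differences after TAC were -0.60 ± 0.15 for Nampt, -0.55 ± 0.13 for Nadk2, -0.32 ± 0.14 for Nmnat3 and 1.79 ± 0.72 for Nmrk2. That library was also the wild-type TAC library nearest to sham on the first principal component, so these values set the knockout hearts against 1 library and are given as a description. The interaction passed for 0 of the 9 genes (limma with Benjamini-Hochberg, 0.93% of tested genes, 0.377% higher and 0.553% lower), and 1, Nadk2, was under an unadjusted p of 0.05.

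**Figure D4:**
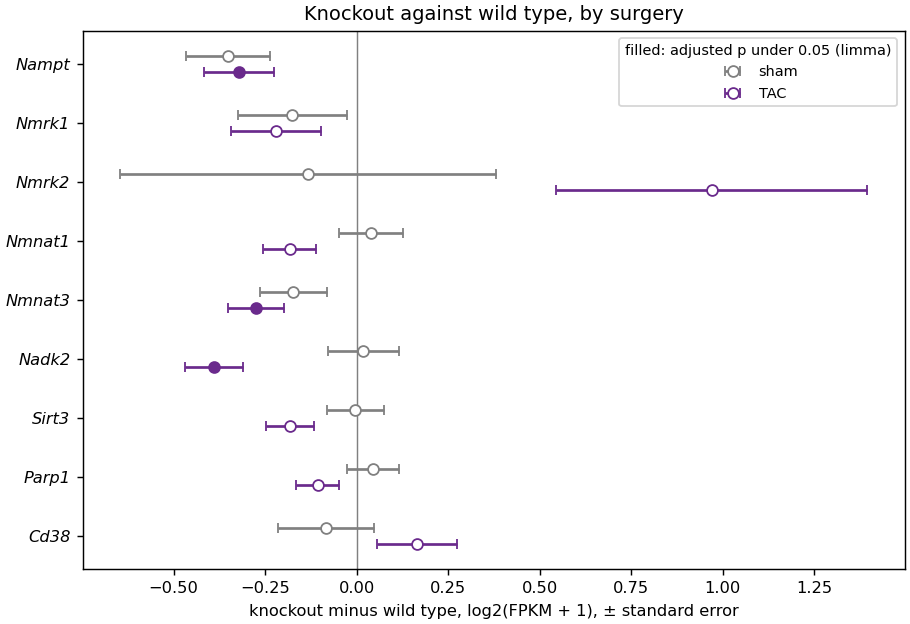
Difference between genotypes (horizontal, knockout minus wild type in log2(FPKM + 1), point with its standard error) in sham (grey) and after TAC (purple) for each gene. Filled points passed the adjusted p threshold of 0.05 in limma, which were Nampt, Nmnat3 and Nadk2 after TAC.

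The other genes of NAD metabolism, and genes described as regulators or partners of Nmrk2 and Nampt, were read from lists of 75 genes. Of these 56 were tested. In wild type 6 rose and 7 fell after TAC, and in knockout 14 rose and 12 fell, with median log2 changes of -0.02 and 0.000233. The 14 include Enpp1 and Arntl, which passed the filter only through TAC libraries. These counts and medians are not of NAD metabolism alone, since 13 of the tested genes are the regulators or partners taken up below. Those 13 gave 4 of the rises and 0 of the falls in wild type. In knockout they gave 6 of the rises and 2 of the falls. Of all tested genes, 21.9% passed in wild type and 38.8% in knockout. Of 5 tested genes of the other salvage steps, 0 passed in wild type (limma, 0 at an unadjusted p under 0.05), and in knockout Naprt, which uses nicotinic acid, fell (7.34 to 5.21 FPKM, limma adjusted p = 0.00101). Pnp, a purine nucleoside phosphorylase gene, rose (5.88 to 8.82 FPKM, adjusted p = 0.00438), and so did Nt5e, the CD73 ectonucleotidase gene (5.02 to 9.98 FPKM, limma adjusted p = 0.0183). Nt5e was also higher in knockout than in wild type after TAC (9.98 against 3.80 FPKM, log2 difference 1.19 ± 0.26, limma with Benjamini-Hochberg adjusted p = 0.00972). Levels of Nt5e in wild-type TAC replicates 1 to 5 were 3.24, 5.41, 2.33, 3.725 and 4.28 FPKM. The knockout TAC libraries had 11.03, 5.40, 11.5, 10.96 and 11.01 FPKM, and replicate 2 alone lay within the wild-type range. Naprt was lower in knockout than in wild type after TAC (5.21 against 6.75 FPKM, limma adjusted p = 0.0144).

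Most genes listed for the de novo route from tryptophan were under the filter: 3 of 11 were tested. Kyat3 and Kyat1 are among the 3, but they encode kynurenine aminotransferases, whose product lies on a side branch off the path to NAD. Of these Kyat3, a kynurenine aminotransferase gene, fell (wild type, 13.7 to 9.20 FPKM; knockout, 14.3 to 7.40 FPKM; limma adjusted p = 0.000363 and 1.92e-06). After TAC Kyat3 was also lower in knockout than in wild type (limma adjusted p = 0.0334). Kyat1 fell as well (wild type, 21.2 to 16.99 FPKM; knockout, 19.99 to 15.3 FPKM). Nnt, the mitochondrial transhydrogenase that passes electrons from NADH to NADP, fell with TAC in both genotypes but differed most by genotype. It was at 142.7 FPKM in wild-type sham and 111.4 in wild-type TAC, and at 289.2 and 186.8 in knockout. The genotype difference was 1.01 ± 0.10 in sham and 0.75 ± 0.08 after TAC on the log2 scale (limma with Benjamini-Hochberg adjusted p = 1.18e-05 and 3.4e-05), with no overlap. In sham, genotype and library set cannot be told apart for Nnt, and after TAC the sets nearly follow genotype. Wild-type TAC replicate 5, of the second set, had 134.4 FPKM, the highest of its group, and knockout TAC libraries had 175.7 to 196.5. The cause of the Nnt difference was not tested. Aox1, an oxidase gene that clears methylated nicotinamide, fell to 73.8% of sham in wild type and 57.1% in knockout (limma adjusted p = 0.0134 and 0.00012).

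Of the 6 sirtuin genes other than Sirt3, 0 passed in wild type (limma, 0 at an unadjusted p under 0.05) and Sirt5 fell in knockout (to 85.9% of sham, limma adjusted p = 0.0484). Of 19 tested genes of the PARP family and of ADP-ribose removal, 2 rose and 3 fell in wild type, and 4 rose and 2 fell in knockout. Over all tested genes, 10.7% rose and 11.2% fell in wild type, and 21.1% rose and 17.7% fell in knockout. Tnks, the tankyrase gene, rose to 129% and 142% of sham (limma adjusted p = 0.0086 and 0.000516). Macrod1 and Oard1, which remove ADP-ribose from proteins, fell in both genotypes, Macrod1 to 81.0% and 66.7% and Oard1 to 76.0% and 65.3% of sham. In the list on NAD breakdown, 0 of 4 tested genes passed in wild type (limma, 2 at an unadjusted p under 0.05). In knockout Nudt12 fell (5.48 to 4.03 FPKM) and Nudt13 rose (8.71 to 9.88, with an adjusted p that rounds to 0.05). Enpp1 had 0.774 FPKM in knockout sham and 2.12 in knockout TAC. Its sham libraries reached at most 0.909 FPKM in wild type and 0.893 in knockout. Only TAC libraries thus brought Enpp1 past the filter, and its change is given as a description. Tiparp, a mono-ADP-ribosyltransferase gene, was higher in knockout than in wild type after TAC (8.21 against 5.15 FPKM, limma adjusted p = 0.0433). Of 2 tested transport genes 0 passed in wild type (limma, 0 at an unadjusted p under 0.05). Slc29a1, a nucleoside transporter gene, fell in knockout to 85.6% of sham and was lower in knockout than in wild type after TAC (limma adjusted p = 0.00816 and 0.0209).

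Genes described elsewhere as regulators or partners of Nmrk2 and Nampt moved unevenly. Of 13 tested, 4 rose in wild type, and 6 rose and 2 fell in knockout, where the 6 include Arntl, taken up below. Beside this, 10.7% of all tested genes rose in wild type, and 21.1% rose and 17.7% fell in knockout. Srf, the serum response factor gene, rose to 125% and 146% of sham (limma adjusted p = 0.000287 and 1.28e-06), and Itgb1, the beta-1 integrin gene, to 116% and 135%. After TAC Itgb1 was higher in knockout than in wild type (108.1 against 92.4 FPKM, limma adjusted p = 0.0117). Ppargc1a, which encodes the mitochondrial coactivator PGC-1alpha, rose in wild type (21.3 to 40.1 FPKM, limma adjusted p = 0.00797), and had 23.8 and 32.3 FPKM in knockout (adjusted p = 0.204). Ppara, the fatty acid receptor gene, had 14.3 and 15.7 FPKM in wild type and fell from 15.55 to 11.9 in knockout (limma adjusted p = 0.271 and 0.00245). After TAC it was lower in knockout than in wild type, with no overlap (log2 difference -0.38 ± 0.07, limma adjusted p = 0.00445), and its interaction was -0.49 ± 0.12 (adjusted p = 0.0519).

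Nampt is a target of the circadian clock in several tissues, and 6 clock genes of that list were tested. With TAC, 21.9% of all tested genes passed in wild type and 38.8% in knockout. Clock rose in both genotypes. In knockout Nfil3 rose and Dbp fell after TAC (limma adjusted p = 0.00179 and 0.00403), and Per1 and Per2 did not pass in either genotype. Arntl was near the floor, at 0.128 FPKM in knockout sham and 0.998 ± 0.743 (SD) in knockout TAC. Its sham libraries in the model reached at most 0.455 FPKM in wild type and 0.199 in knockout. Only TAC libraries thus brought Arntl past the filter, and its change is given as a description. Dbp was at 60.45 FPKM in wild-type sham, 63.4 in wild-type TAC, 112.1 in knockout sham and 59.6 in knockout TAC. The labels give no time of day at which hearts were taken, and the part of these genes in the levels of Nampt was not tested.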

How the data were processed

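Heart RNA of 18 mouse libraries was sequenced; per the labels' protocols, 1.3 ug of total RNA went into each SMARTER mRNA library. The authors deposited 1 table of 34714 genes with a column per library. Its values were taken as FPKM, as the deposited table does not name its unit: they are not whole numbers, they sum to 390453 to 432264 per library, and multiplied by transcript length they sum to nearly the same total in each. FPKM and RPKM could not be separated. The genome build is mm10, per the submitters' processing notes. The sources used here name neither the aligner nor the counter, and do not say whether strand was used. Sequencing depth is unknown, so no counting interval is given. All gene names matched RefSeq symbols of GRCm38, the source of coordinates and of promoters (8 of 9 genes).

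A linear model with 1 mean per group was fitted to log2(FPKM + 1) of 11937 genes with limma 3.58.1 in R 4.3.3 (eBayes with a trend, robust). The Benjamini-Hochberg adjustment ran over all of these genes, with a threshold of 0.05. A fold change on this scale understates the change of low genes. Kcp was also tested by exact permutation. The genes and lists were chosen with earlier results of these data known. All 9 genes are named in every comparison. From each list of other NAD genes or of regulators, up to 3 with the smallest adjusted p in each TAC comparison were named where they passed. In the other comparisons up to 2 were named. The clock genes, Ppara, Ppargc1a and the genes overlapping members were added to show the values beside a result. Likeness is Pearson's r over the 17 libraries, 5 genes each way. The same replicate numbers did not pair libraries: the labels tie them to nothing shared, and correlations of same-numbered libraries ran from -0.24 to 0.16. The fit was tested on simulated data. Alternatives were all 18 libraries, a replicate block, a pseudocount of 0.1, no filter, only the groups compared, median-ratio scaling, a log2 change of at least 1, a term for the library sets, leaving out both TAC libraries nearest to sham, and each library left out in turn.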

Additional observations from a re-analysis of the deposited data

Results flagged for a closer look

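Of 27 sets of values (9 genes in each group of 4 or 5 libraries), 1 held a library that stood apart by Dixon's criterion, and chance alone gives about 1 in 20. Nmrk2 in wild-type sham replicate 4 was at 6.191 FPKM, above the 4.34 to 4.51 of the other 3 libraries. Without it the change of Nmrk2 with TAC in wild type was 1.38 on the log2 scale (limma with Benjamini-Hochberg adjusted p = 0.0764), against 1.28 with it (adjusted p = 0.0549).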

How the results depend on the processing

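Of the 9 genes, 4 passed with TAC in wild type and 7 in knockout, 3 differed between genotypes after TAC, and 0 differed in sham or in the interaction (limma). With a log2 change of at least 1 required as well, the counts were 0 in wild type, 2 in knockout and 0 between genotypes after TAC, beside 115, 428 and 62 of all tested genes. With only the groups compared, the sham count was 1 and the knockout TAC count 5, without Nmnat1 and Sirt3 (limma adjusted p = 0.0764 and 0.0551). With no filter on low values, 1 gene differed between genotypes after TAC. Without both TAC libraries nearest to sham, 1 gene passed in the interaction. Leaving out each library in turn gave 4 to 5 in wild type, 5 to 7 in knockout, 0 in sham, 1 to 5 between genotypes after TAC and 0 to 1 in the interaction. Over all tested genes it gave 669 to 1838 after TAC and 10 to 595 in the interaction. The 5 came without knockout TAC replicate 2, and the 1 without wild-type TAC replicates 1 or 5 or knockout TAC replicates 1 or 4. The cause was not tested.

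With the replicate number as a block the counts were 4, 7, 0, 2 and 1. Replicate numbers did not pair libraries, and at most 1 library of a comparison correlated best with its own number.

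The changes of sign were all in values that passed no test. With a term for the library sets, Nmrk1 with TAC in wild type was 0.02522 (also without both TAC libraries nearest to sham), and in sham the genotype differences were 0.0195 for Nmrk1, 0.8884 for Nmrk2, -0.1823 for Nadk2 and -0.1096 for Parp1. In sham, Nadk2 was -0.003093 with all 18 libraries, and Sirt3 was 0.003679 with median-ratio scaling and 0.02555 with the replicate block. Leaving out single libraries gave -0.08711 to 0.04396 for Nmrk1 and -0.164 to 0.02502 for Cd38 with TAC in wild type, and -0.1176 to 0.02642 for Nmrk1 with TAC in knockout. In sham it gave -0.2664 to 0.09921 for Nmrk2, -0.0558 to 0.09599 for Nmnat1, -0.04029 to 0.0609 for Nadk2, -0.05086 to 0.07561 for Sirt3 and -0.002331 to 0.09092 for Parp1. In the interaction it gave -0.03982 to 0.1001 for Nampt and -0.1037 to 0.04036 for Nmrk1. Depth is unknown, so its limits on the low genes were not tested.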
